A study of Zea mays with 6 samples.

Results

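Sucrose leaves a maize leaf through a short chain of proteins. Export genes of that chain, together with sucrose synthase genes, were read here in leaves of field-grown maize (Zea mays). The genes were chosen by gene ID: 1 sucrose phosphate synthase, 3 sucrose synthases, the sucrose uptake carrier gene sut1 and 3 genes given as SWEET13, which makes 8 in all. Of these, 7 were found among the 39628 gene models of each library, and the sucrose phosphate synthase GRMZM2G013166 was not analysed here. The 6 libraries fall into 2 groups of 3: wild type, which is the inbred line Q319, and L100, labelled a transgenic line. The labels give leaves at leaf stage 6 for both groups. The transgene, its promoter and the background in which L100 was made are not named there, so the labels could not be checked against a targeted gene. Separate plants or plots behind the 3 libraries of a group are not stated either, and p-values therefore describe the spread among these libraries alone, which may be technical.

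In a source leaf, sucrose phosphate synthase and sucrose phosphate phosphatase make sucrose in the cytosol. SWEET proteins let sucrose pass down its gradient out of the cell, and SUT1, a proton-coupled symporter, takes it up from the cell wall space into the phloem. Sucrose synthases split sucrose into fructose and UDP-glucose, and invertases split it into glucose and fructose; both are best known from tissues that import sugar. The sucrose synthase gene sh1 is named after the shrunken kernels of its mutant.

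Total counts ran from 6458248 to 9922468 per library, and 3 counts corresponded to 0.302 to 0.465 CPM (counts scaled to the size of the library) on those totals. All other CPM values are on library sizes scaled by TMM, a trimmed mean of ratios, unless unscaled totals are named. Wild type replicate 3 stood apart, at -116 on the first principal component against -35.5 to 60.9 for the other 5 libraries. The libraries carried the leaf markers pep1 (24190 ± 7557 CPM in wild type and 37167 ± 3929 in L100; SD, n = 3 per group) and me3 (9491 ± 2433 and 12060 ± 1539 CPM), of mesophyll and bundle sheath respectively. With them went pdk1 (34146 ± 8601 and 49757 ± 5535 CPM) and the small Rubisco subunit gene rbcS GRMZM2G098520 (5195 ± 1147 and 5770 ± 1082 CPM). None of these 4 passed (edgeR adjusted p 0.664 to 0.920). Of 7 kernel markers, o2, FL2, zp1, zp27 and mn1 had 0 counts in all 6 libraries, and of 7 markers of meristem and dividing tissue 5 stayed under 1 CPM in each library. The 1 tested gene of each list was bt2 (15.1 ± 8.77 and 10.3 ± 1.08 CPM) and pcna1 (2.11 ± 0.206 and 2.35 ± 0.926 CPM), neither called. The 6 genes of the mesophyll list summed to between 46980 and 76421 CPM in the wild type libraries and between 83687 and 101361 CPM in those of L100. Of these 6, the groups did not overlap in 2, pep1 and pdk1. The estimate was lower in L100 for 1, listed as PDK1 (GRMZM2G097821, log2 fold change -0.39 ± 0.24). It and GRMZM2G107196, also listed as PDK1, were matched by symbol alone, and whether they are mesophyll genes was not checked. Their group means ran from 23.6 CPM (GRMZM2G097821, L100) to 35.5 CPM (GRMZM2G107196, L100), far below those of pdk1. The 4 bundle sheath genes summed to between 14134 and 22992 CPM in wild type and between 21501 and 27436 CPM in L100. Summed markers of leaf state separated the groups as well. Taken singly, 2 of 3 photosynthetic leaf genes and 1 of 3 senescing leaf genes (see2b) had groups that did not overlap. Over all tested genes that held for 16.2%. The 3 photosynthetic leaf genes summed to between 1398 and 3824 CPM in wild type and between 4766 and 5827 CPM in L100, and of these cab48 (GRMZM2G120619), an antenna protein gene, rose (log2 fold change 3.09 ± 0.45, edgeR adjusted p = 0.0316). The 3 senescing leaf genes summed to between 390 and 970 CPM in wild type and between 200 and 337 CPM in L100, and of these see2b (GRMZM2G093032), a legumain-like protease gene, fell (log2 fold change -2.13 ± 0.25, edgeR adjusted p = 0.0180). In whole leaves, fewer cells of a type and less RNA per cell cannot be told apart.

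Of the export genes, sut1 and the SWEET13 pair GRMZM2G173669 and GRMZM2G021706 stood above the sucrose synthases in level per length. By the authors' FPKM (fragments per length of gene and depth of library), sut1 (GRMZM2G034302) had a mean of 372 ± 77.9 over the 6 libraries (SD), which ranked 232 among all gene models. The SWEET13 gene GRMZM2G173669 followed with 279 ± 101 FPKM, at rank 312. These neighbours in the order overlapped: sut1 was higher in 5 of 6 libraries, and in wild type replicate 2 GRMZM2G173669 was slightly higher (443 against 435 FPKM). GRMZM2G021706 had 87.4 ± 38.3 FPKM and lay below GRMZM2G173669 in all 6 libraries. GRMZM2G179349, whose gene model is shorter (483 bases against 906 and 909), had 39.2 ± 36.7 FPKM, and its values overlapped those of the sucrose synthases: it was above sh1 in 4 of 6 libraries, and in L100 replicate 1 it had 1.49 FPKM against 20.3 for sh1 and 25.0 for sus1.

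By their means over the 6 libraries, the sucrose synthases came last, at 18.6 ± 8.85 FPKM for sh1 (GRMZM2G089713), 15.6 ± 10.4 for sus1 (GRMZM2G152908) and 6.85 ± 2.31 for sus2 (GRMZM2G318780). The first pair had no fixed order, since sus1 exceeded sh1 in wild type replicate 1 and in all 3 L100 libraries and lay far below it in the other 2 wild type libraries. sus2 was the lowest of the 3 in 5 of 6 libraries, the exception being wild type replicate 2, where sus1 was at 1.78 FPKM and sus2 at 6.36. The gene matched as SPS in the reference table is called sps1 here (GRMZM5G875238). This sucrose phosphate synthase gene outside the chosen set had 429 ± 90.7 FPKM, a mean above that of every member.

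**Figure D1:**
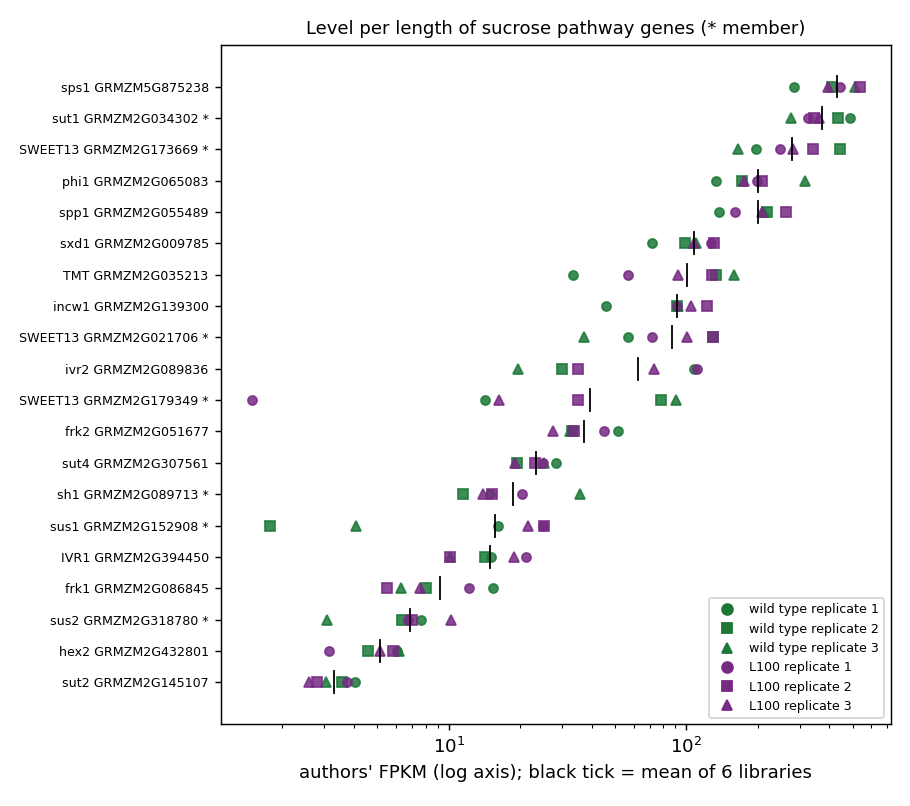
The authors' FPKM (x axis, log scale) of 20 genes with enough counts for testing, the members and genes matched by a sucrose pathway symbol. Genes are ordered by mean, with 1 point per library and a black tick for the mean of 6 libraries. Asterisks mark the 7 members. sut1 and the SWEET13 gene GRMZM2G173669 lie near the top at 372 and 279 FPKM, and the sucrose synthases in the lower part at 6.85 to 18.6.

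No member passed an adjusted p of 0.05 between L100 and wild type in edgeR's quasi-likelihood test over all 18702 tested genes, of which 156 (0.834%) passed. All 7 entered the test, 4 with a higher and 3 with a lower estimate in L100; over all tested genes 47.6% were higher. Their median log2 fold change was 0.11, beside -0.03 for all tested genes. Without adjustment, sus1 was the 1 member under 0.05 (edgeR p = 0.0429, not an exact test), which 10.04% of all tested genes reached. DESeq2 called none of the members and 3.06% of the genes it adjusted. In 1 member (sus1) no wild type library overlapped the L100 range, which held for 16.2% of all tested genes.

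Among the cleaving enzymes, sus1 had the largest estimate. It was read at 50.2, 5.37 and 12.6 CPM in the wild type (replicates 1, 2 and 3, an order kept below) and at 77.6, 77.4 and 66.9 CPM in L100. All L100 libraries lay above all wild type libraries, and the wild type libraries themselves spanned 9.36-fold, against 1.16-fold within L100. The log2 fold change was 1.70 ± 0.71 (SE), with a 95% interval of 0.07 to 3.33 that takes no account of the number of genes tested, and it did not pass (edgeR adjusted p = 0.476). Wild type replicate 1 was the closest to L100, and the call depended on it: without it sus1 passed, with a log2 fold change of 3.03 (edgeR adjusted p = 0.0388, the lowest over 14 alternatives, the highest being 0.858), in a comparison where 0.862% of genes passed. Without each of the other 5 libraries the adjusted p was 0.277 or more. The summed mesophyll and photosynthetic leaf lists, though not each of their genes, also separated the groups, higher in L100. The summed senescing leaf list did so in the other direction, among its genes see2b alone. Wild type replicate 1 was the lowest library in the mesophyll sum (46980 CPM). In the senescing leaf sum it was the wild type library nearest to L100 (390 CPM). In the photosynthetic leaf sum it lay between the other wild type libraries (1950 CPM). The part of these lists in the sus1 values was not tested.

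The values of sh1 were set apart by a single library. Its wild type values were 41.7, 31.6 and 98.4 CPM, and its L100 values 55.8, 41.7 and 38.4 CPM. Wild type replicate 3 alone lay above all other libraries, and the remaining values of the groups overlapped. The log2 fold change of -0.34 ± 0.43 (edgeR adjusted p = 0.843) turned to 0.31 without that library.

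Wild type values of sus2 were 19.1, 14.2 and 6.79 CPM, and its L100 values were 16.6, 16.9 and 22.8 CPM. Wild type replicate 3 was the lowest and L100 replicate 3 the highest, and the groups overlapped (log2 fold change 0.49 ± 0.39, edgeR adjusted p = 0.731).

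**Figure D2:**
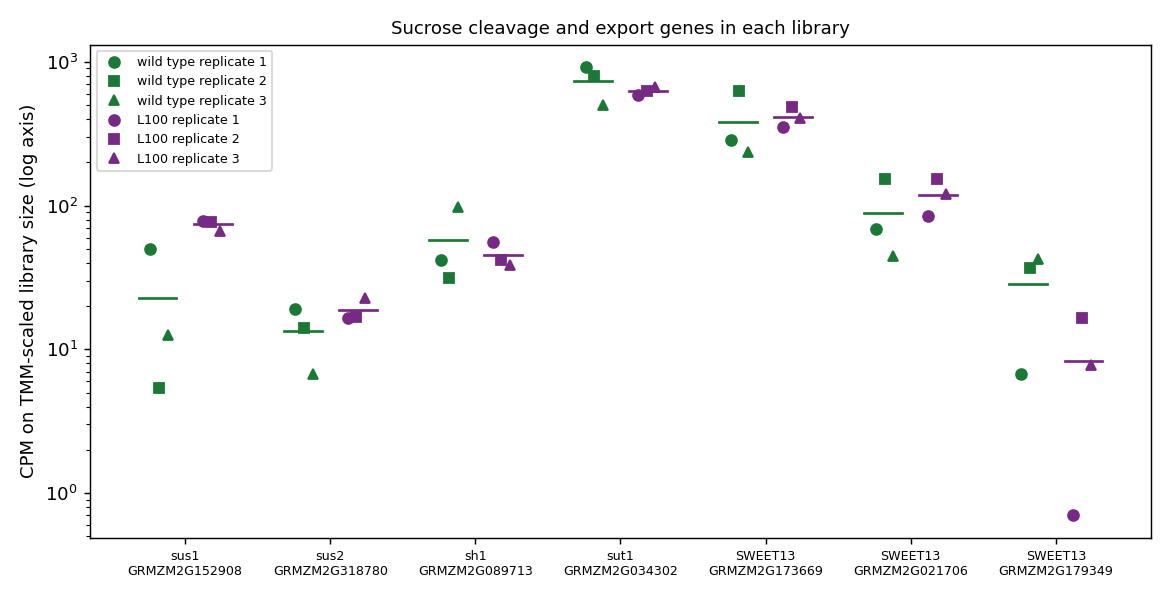
CPM on TMM-scaled library sizes (y axis, log scale) of the 7 members in each library, wild type in green and L100 in purple, with horizontal lines for group means. sus1 is the member whose groups do not overlap, and the wild type points of sus1 and the L100 points of GRMZM2G179349 are the most scattered.

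Both the sum of the sucrose synthases and its make-up differed between libraries. Together the 3 genes gave 111, 51.1 and 118 CPM in the wild type libraries and 150, 136 and 128 CPM in L100. Every L100 library was above every wild type library, with a difference in mean log2 of 0.66 and p = 0.1 in an exact two-sided permutation test, the smallest value that 3 against 3 libraries allow. With CPM on unscaled totals the difference was 0.44 and p was 0.6 in the same exact test. Without wild type replicate 2 it fell to 0.27. The sums of the photosynthetic, mesophyll and senescing leaf lists separated the groups too, though not each gene of them did. The part of these lists in the sucrose synthase sum was not tested.

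sh1 made up 37.6%, 61.7% and 83.6% of the sucrose synthase counts in the wild type libraries, against 37.2%, 30.7% and 30.0% in L100. The groups were separated by the narrow gap between wild type replicate 1 (95% exact binomial interval 34.7% to 40.5%) and L100 replicate 1 (34.3% to 40.2%), which is within counting error. The mean share differed by -28.3 percentage points, L100 minus wild type (exact two-sided permutation test, p = 0.1), and by -17.0 points without wild type replicate 3. By the authors' FPKM the difference was -26.3 points, and the groups overlapped (exact p = 0.2). sus1 held 45.2%, 10.5% and 10.7% of these counts in wild type and 51.7%, 56.9% and 52.2% in L100.

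The uptake carrier gene sut1 was read at 921, 801 and 503 CPM in the wild type libraries and at 593, 627 and 667 CPM in L100. The L100 libraries all lay inside the wild type range, between replicate 3 below and replicates 1 and 2 above. The log2 fold change was -0.24 ± 0.31 (edgeR adjusted p = 0.847), and its 95% interval of -0.96 to 0.48 corresponds to between 0.514 and 1.40 times the wild type level. The spread within L100 was narrow, at 1.12-fold from lowest to highest library.

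Of the SWEET13 genes, the most abundant was GRMZM2G173669, with 284, 631 and 237 CPM in the wild type libraries against 354, 486 and 404 CPM in L100. Again the L100 libraries lay inside the wild type range, with wild type replicate 2 highest and replicate 3 lowest. The log2 fold change was 0.11 ± 0.41 (edgeR adjusted p = 0.953), with a 95% interval of -0.84 to 1.06, and its sign turned without wild type replicate 1, wild type replicate 3 or L100 replicate 2 (-0.07, -0.14 and -0.02).

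GRMZM2G021706 had the same high and low wild type libraries. Values were 68.3, 152 and 44.3 CPM for the wild type and 85.2, 152 and 120 CPM for L100, so the groups overlapped (log2 fold change 0.43 ± 0.47, edgeR adjusted p = 0.807; without wild type replicate 2, 1.09 and 0.184). In the order of RefSeq records of a later maize assembly, this gene and GRMZM2G173669 are neighbours with 0 other protein-coding records between them, and GRMZM2G179349 is on another chromosome. The count of GRMZM2G173669 was between 3.19 and 5.35 times that of GRMZM2G021706 in the 6 libraries, a range of 1.68-fold.

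GRMZM2G179349 had the fewest counts of the 3 and was the most scattered. Per length, GRMZM2G021706 was above it in 5 of 6 libraries. The exception was wild type replicate 3, with 90.6 FPKM for GRMZM2G179349 against 37.3. GRMZM2G179349 had 6.78, 36.5 and 42.8 CPM in the wild type libraries and 0.700, 16.4 and 7.72 CPM in L100, the lowest value resting on 5 counts. L100 replicates 2 and 3 lay above wild type replicate 1, so the groups overlapped. Each L100 library was below the wild type library of the same number, though the labels state no pairing. The share of all genes with such an order was not computed. The log2 fold change was -1.80 ± 0.96 (95% interval -4.02 to 0.42, edgeR adjusted p = 0.608), and it was negative in all 14 alternatives with adjusted p of 0.148 or more. Leaving out L100 replicate 1, which had the lowest value, gave -1.24, and leaving out L100 replicate 2 gave -2.78. Its share of the SWEET13 counts was 1.89%, 4.46% and 13.2% in the wild type libraries, against 0.159%, 2.51% and 1.45% in L100. Here too wild type replicate 1 was below L100 replicate 2, so the groups overlapped. Members of this family are similar to each other, and how the authors' counting shared reads between them is not stated in the sources at hand, so single SWEET13 values are less certain than their sum.

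**Figure D3:**
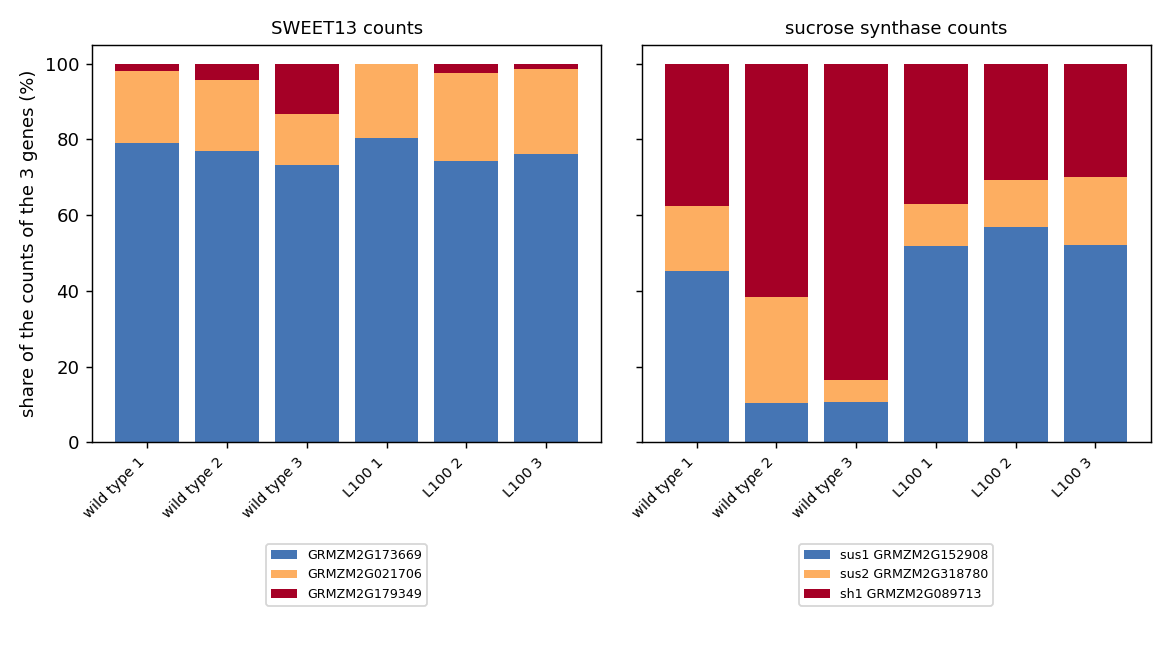
Share of counts (y axis, percent of the counts of the 3 genes) held by each SWEET13 gene, left, and each sucrose synthase gene, right, in the 6 libraries. GRMZM2G173669 keeps between 73.1% and 80.5% of the SWEET13 counts, whereas the sh1 share runs from 30.0% to 83.6%.

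Summed SWEET13 levels were 359, 819 and 324 CPM for the wild type and 440, 655 and 532 CPM for L100. The difference in mean log2 was 0.23 (exact two-sided permutation test, p = 0.7), and without wild type replicate 3 it was -0.02. Per count of sut1, the SWEET13 genes had 0.390, 1.02 and 0.645 counts in wild type and 0.741, 1.04 and 0.797 in L100. This within-library ratio of the efflux genes to the uptake gene differed by 0.42 in mean log2 (exact two-sided permutation test, p = 0.4) and by 0.07 without wild type replicate 1. L100 replicates 1 and 3 lay within the wild type range, and replicate 2 was close to wild type replicate 2 at its top.

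Most members varied more within wild type than within L100. From lowest to highest library, the wild type range was the wider in 6 of 7 members, as it was in 69.8% of the tested genes that were read in every library. The exception was GRMZM2G179349, at 6.32-fold in wild type and 23.4-fold in L100. A wild type range of at least 4-fold was found in 2 members (sus1 and GRMZM2G179349) and in 15.5% of those genes. An L100 range of that size was found in 1 member and in 4.01% of them.

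Profiles over the 6 libraries were compared by the root mean square difference of log2 CPM (with 0.5 CPM added) after each gene's own mean was removed, against 10596 other genes with a mean of at least 10 CPM. For GRMZM2G021706, its neighbour GRMZM2G173669 came 89th in closeness (0.24), and in the other direction GRMZM2G021706 came 214th. How reads were shared between these similar genes is not stated, and the part of read sharing in their closeness was not tested. No other pair of members was that close in rank. The next were sus2, 565th in the order from sus1 (1.19), and sut1, 1305th in the order from sus2 (0.43). These ranks held in 1 direction only. In the order from sus2, sus1 came 10104th, and in the order from sut1, sus2 came 4608th. In the order from GRMZM2G173669, the SWEET13 gene GRMZM2G179349 came 10461st (1.73). The closest genes to sus1 were GRMZM2G147145 (0.38), GRMZM2G043338 (0.39) and met2 (GRMZM2G025592, 0.47), where the median over all genes was 1.49. The closest to sut1 was GRMZM2G064873 (0.05, median 0.46), and the closest to GRMZM2G173669 was GRMZM2G087161 (0.09, median 0.56).

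The remaining genes matched by a sucrose pathway symbol gave no call in either direction. Of 16 such genes in the files, 13 were tested, 6 with a higher and 7 with a lower estimate in L100. Their median log2 fold change was -0.10. The transport list among them includes TMT (GRMZM2G035213, log2 fold change -0.23). It was matched by symbol alone, and whether it is a sugar carrier gene was not checked. Of these 13 genes 0 had groups that did not overlap, and 0 reached an unadjusted p under 0.05 in edgeR; DESeq2 called 0 of them as well. For synthesis, sps1 had means of 1408 ± 390 CPM (wild type) and 1598 ± 253 CPM (L100) (log2 fold change 0.18 ± 0.32, edgeR adjusted p = 0.895). The sucrose phosphate phosphatase gene spp1 (GRMZM2G055489) had 300.3 ± 69.2 and 331 ± 79.4 CPM (adjusted p = 0.921, edgeR).

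Besides the sucrose synthases, the tested cleavage genes were 3 invertases, each with a positive estimate and none called. The cell wall invertase gene incw1 (GRMZM2G139300) had 162 ± 54.6 and 223 ± 32.9 CPM in wild type and L100 (edgeR adjusted p = 0.709). The soluble acid invertase gene ivr2 (GRMZM2G089836) was the most scattered, at 277, 75.8 and 50.1 CPM for the wild type and 281, 88.7 and 187 CPM for L100. Its highest wild type library was replicate 1, as for sus1. The invertase genes mn1 (GRMZM2G119689) and incw3 (GRMZM2G123633) had 0 counts in all 6 libraries, which is under the floor of 3 counts per library.

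Among the other transport genes sxd1 (GRMZM2G009785), a tocopherol cyclase gene whose mutant is defective in sucrose export, had 145 ± 29.7 and 189 ± 18.1 CPM (edgeR adjusted p = 0.708). The relatives of sut1, named here after their values were seen, were lower in level, with sut4 (GRMZM2G307561) at 23.3 ± 3.66 FPKM and sut2 (GRMZM2G145107) at 3.29 ± 0.573 FPKM over the 6 libraries. Both had groups that overlapped (edgeR adjusted p 0.910 and 0.842). All 4 genes for hexose phosphorylation and isomerisation had negative estimates with a median of -0.22. The most abundant were phi1 (GRMZM2G065083), a phosphohexose isomerase gene, at 183 ± 84.6 and 171 ± 14.9 CPM, and the fructokinase gene frk2 (GRMZM2G051677), at 52.4 ± 13.7 and 46.5 ± 10.3 CPM. Neither passed (edgeR adjusted p 0.951 and 0.890). The estimate turned positive without wild type replicate 3 for phi1 (0.34) and without wild type replicate 1 for frk2 (0.07).

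**Figure D4:**
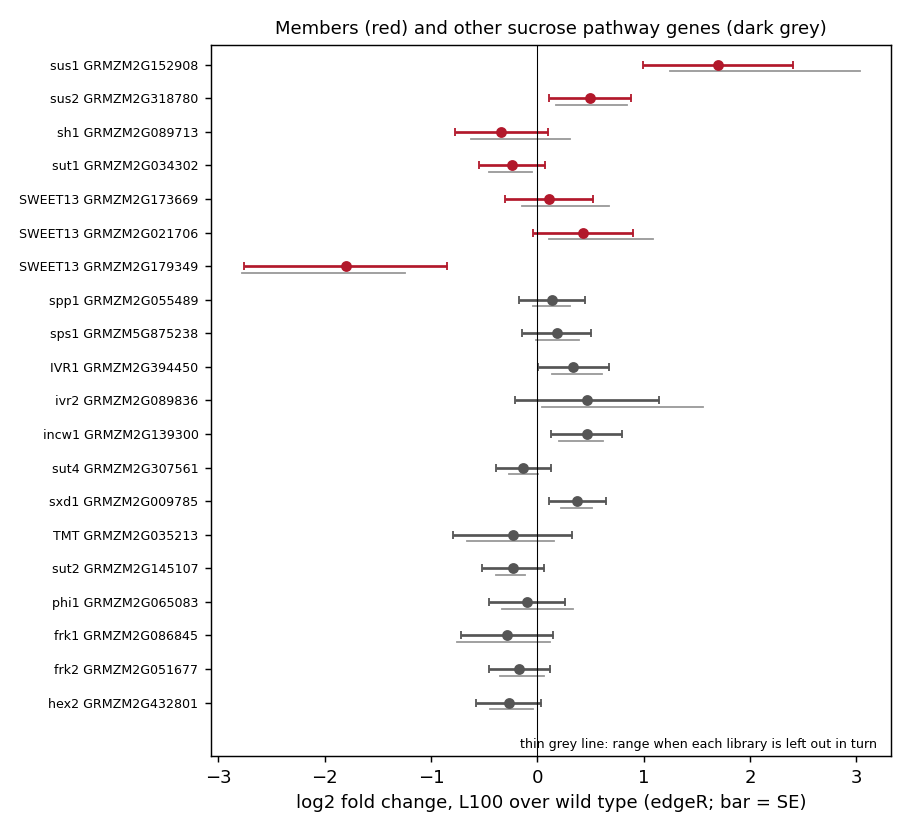
log2 fold change of L100 over wild type (x axis) with its SE as bars. The 7 members are in red and 13 other genes matched by a sucrose pathway symbol are in dark grey. The thin grey line under each gene is the range when each library is left out in turn. sus1 lies farthest to the right at 1.70 and GRMZM2G179349 farthest to the left at -1.80, with the widest bars, and the other genes lie within 0.5 of 0.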

How the data were processed

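RNA sequencing tables of 6 leaf libraries were used. Per the labels, RNA was taken from frozen leaves with Trizol and made into Illumina libraries. The genome build B73 RefGen_v3 and Bowtie 0.12.2 are named in the submitters' processing notes; the counting tool and its handling of reads shared between copies are not given in the sources used here. Per the file headers, the authors deposited an estimated count and an FPKM value per gene, a scaled fragment signal (the count times 1 factor per library, not used) and a gene length. Of the estimated counts the authors deposited, 0.300% were not whole (tolerance 0.001), and rounding was applied to all.

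L100 was compared with wild type by edgeR 4.0.16 under R 4.3.3 (quasi-likelihood test without a block, TMM scaling, genes kept by filterByExpr), p-values being adjusted over all tested genes by the Benjamini-Hochberg method; the script was tested on simulated data. Alternatives used DESeq2 1.42.0, limma 3.58.1, other scalings and filters, a replicate block and each library left out. Deposited FPKM served for levels between genes and as an alternative. Single values were tested by exact two-sided permutation. Intervals of shares are exact binomial ones and cover counting error only, as do floors. No library was a repeat of another: chi-square per gene within groups was 14.4 or more, far above sampling noise.

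Gene names came from RefSeq records of Zm-B73-REFERENCE-NAM-5.0, used for names and order only; 47.4% of gene IDs matched. That table holds no symbol for the SWEET13 genes, which are named as in the list of members. Named genes were all members, called list genes or else the 2 with the highest mean per list, and the closest profiles. The members and lists were chosen with earlier results of these data known. Lists of protein relatives were not used here, as no protein table was at hand.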

Additional observations from a re-analysis of the deposited data

How the results depend on the processing

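Over all genes, DESeq2 called 570 genes, the strict filter (5 CPM in 3 libraries) left 70 and the replicate block 5, against 156; leaving out 1 library gave 0 to 222. No member was called by any other tool, scaling, filter or block, and 0 to 1 with 1 library left out (sus1, without wild type replicate 1); the other pathway genes had no call under any of them. The summed SWEET13 difference ran from -0.021 to 0.65 with 1 library left out, turning sign without wild type replicate 3, and was 0.01 with CPM on total counts. That of the summed sucrose synthases ran from 0.27 to 0.87, that of SWEET13 per sut1 from 0.07 to 0.76 and that of the sh1 share from -40.0 to -17.0 percentage points. Same-numbered libraries of the 2 groups deviated together for replicates 1 and 2 (correlation across genes 0.38 and 0.35) but not for replicate 3 (0.01). The crossed pairs of replicates 1 and 2 gave -0.30 and -0.41. The labels state no pairing, so the main test had no block, and the replicate block was run as an alternative. With the replicate block, GRMZM2G179349 had a log2 fold change of -2.12 (edgeR adjusted p = 0.148) and sus1 2.26 (0.267). Their unadjusted edgeR p in that fit was 0.00275 and 0.0130, where 2287 of 18702 genes were under 0.05. Paired sign-flip tests of the 4 single values gave exact p of 0.25 or more, the smallest that 3 pairs allow. The ratio of sucrose synthase to sucrose phosphate synthase counts was not run, because GRMZM2G013166 was not analysed here. Depth limits GRMZM2G179349 most, with 5 counts in L100 replicate 1.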
